A study of Mus musculus with 10 samples.

Results

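A set of 50 genes that mark the DNA-synthesis (S) phase and the G2 and mitotic (G2/M) phases of the cell cycle were followed through the chemical conversion of mouse fibroblasts into cells resembling extraembryonic endoderm (XEN). The genes were chosen by name from the rows of a single-cell count matrix: 20 S members and 30 G2/M members, 50 of the 23197 genes used, and all 50 were present. The starting cells at d0 were embryonic fibroblasts (MEFs) from midgestation ICR mouse embryos. All later cells had been in XEN reprogramming medium with the C6FAE cocktail, which holds CHIR99021 (a GSK3 inhibitor), RepSox (an ALK5 inhibitor), Forskolin (an activator of cAMP signalling), AM580 (a retinoic acid receptor agonist) and EPZ004777 (a DOT1L inhibitor). Single cells were picked by hand after digestion on 10 days, at d0, d1, d2, d3, d4, d5, d6, d8, d12 and d20. Cells taken from colonies at day 8 and day 12 form separate groups, d8c and d12c, so that 12 groups were compared. The d6 cells carry the name d6p, whose added letter is not explained in the labels, so a selection of these cells cannot be told apart from the day in any d6 value.

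The matrix held 808 cells, of which 670 had at least 4000 detected genes and were kept. The labels list 10 batches that could not be tied to cells, so the course was treated as 1 sample and no test was possible. Intervals are exact 95% intervals (Clopper-Pearson for shares of cells, Poisson for UMI sums) and cover counting error only. Levels are given as CPM, a gene's UMIs (tags that mark single mRNA molecules) per 1000000 UMIs of the cell without spike-in RNA. CPM is a share of the UMIs of a cell, so more of 1 transcript and less of the others cannot be told apart from CPM alone.

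A dividing cell loads the MCM helicase on DNA in G1, fires replication in S phase, and then builds the mitotic machinery in G2. E2F factors, held back by the retinoblastoma family, drive many S genes. Many G2/M genes are repressed in resting cells by the DREAM complex through a promoter element called the cell cycle homology region (CHR). They are activated by B-MYB and FOXM1, and by NF-Y, which binds CCAAT boxes. Fibroblasts leave the cycle when crowded or stressed, whereas XEN cells in culture divide steadily.

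Promoter windows of 300 bases (250 before to 50 after an annotated start, RefSeq, build GRCm38.p6) were found for 40 of the 50 members, and letters were searched on both strands. The E2F words TTTCCCGC, TTTGGCGC, TTTCGCGC and TTTGCCGC were present in 6 of 17 windows of S members (35.3%) and in 1 of 26 windows of G2/M members (3.85%), beside 2.26% of all 32851 windows. The CHR letters TTTGAA had the opposite split. They were in 20 of 26 G2/M windows (76.9%) and in 2 of 17 S windows (11.8%), beside 17.9% of all windows. CCAAT was in 21 of 26 G2/M windows (80.8%) and 10 of 17 S windows (58.8%), beside 37.4% of all windows. Both CHR and CCAAT were present in 18 of 26 G2/M windows (69.2%), beside 6.95% of all windows. A match says that the letters are there and does not show a bound site.

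A few of these promoters are printed as examples, which do not stand for their whole lists. Mcm5, a helicase subunit, is from the S list. Cdk1, the mitotic kinase, Ccnb2, its cyclin partner, and Plk1, the polo kinase, are from the G2/M list. Each is the 200 bases before the annotated start, 5′ to 3′ on the gene's strand, with the E2F, CHR and CCAAT matches on either strand in capitals. They lie at chr8:75109309-75109508 (forward strand), chr10:69352913-69353112 (reverse), chr9:70421555-70421754 (reverse) and chr7:122159235-122159434 (forward) of GRCm38.p6.
Mcm5: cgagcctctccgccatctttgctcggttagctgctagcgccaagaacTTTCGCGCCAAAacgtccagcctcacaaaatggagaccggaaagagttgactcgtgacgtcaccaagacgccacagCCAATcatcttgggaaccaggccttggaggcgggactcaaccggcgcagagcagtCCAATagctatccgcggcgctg
Cdk1: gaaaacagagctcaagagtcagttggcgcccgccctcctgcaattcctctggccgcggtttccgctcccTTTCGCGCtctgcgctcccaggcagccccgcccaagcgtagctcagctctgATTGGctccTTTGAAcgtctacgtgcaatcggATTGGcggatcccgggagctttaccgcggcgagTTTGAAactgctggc
Ccnb2: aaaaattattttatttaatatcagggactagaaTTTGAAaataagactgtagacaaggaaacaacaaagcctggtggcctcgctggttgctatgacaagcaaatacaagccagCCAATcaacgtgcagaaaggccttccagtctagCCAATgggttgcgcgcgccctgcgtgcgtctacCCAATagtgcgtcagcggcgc
Plk1: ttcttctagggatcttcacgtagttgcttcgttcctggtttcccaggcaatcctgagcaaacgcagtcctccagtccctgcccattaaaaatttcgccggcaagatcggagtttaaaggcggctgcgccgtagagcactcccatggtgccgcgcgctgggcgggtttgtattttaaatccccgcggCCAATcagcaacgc
The Mcm5 window held E2F words that overlap each other on opposite strands, followed by CCAAT boxes. The Cdk1 window was the only G2/M window with an E2F word. In the printed bases this word lay upstream of CHR letters and of CCAAT read on the reverse strand (ATTGG). A further ATTGG at -208 from the start, upstream of the E2F word, is not printed. The Ccnb2 window held 3 CCAAT boxes and distant CHR letters, with a further CHR match 4 bases past the start. In the Plk1 window the CHR letters lay 30 bases past the start and are not printed.

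Depth differed between groups. Median UMIs in kept cells ranged from 195480 at d20 to 1055210 at d2, and 38 of 72 cells at d20 and 51 of 96 at d12c passed the gene filter. To compare groups, each cell was thinned to 50000 UMIs, which left 647 cells after 23 shallower ones were set aside. Kept and thinned cells numbered 20 at d8c and from 35 to 82 elsewhere. The cells were checked with 10 fibroblast and 10 XEN markers. The summed fibroblast level had a median of 3522 CPM at d0, 9539 at d6, 16587 at d8, 10629 at d12 and 46.0 at d20. The summed XEN level had medians of 51.2 CPM at d0 and 1576 at d20. Endothelial, macrophage and muscle markers had group medians of at most 3.8, 4.3 and 153.3 CPM, although single d0 cells reached 9516 CPM of muscle markers. Their part in the levels below was not tested.

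G2/M members were widely present in fibroblasts at d0, in fewer cells at d6 and d8, in the fewest at d12, and again in most cells at d20. With a UMI for at least 8 of the 30 G2/M members, 61 of 71 d0 cells were positive (85.9%, interval 75.6 to 93.0). The share was 28 of 81 at d6 (34.6%, 24.3 to 46.0), 23 of 59 at d8 (39.0%, 26.5 to 52.6) and 10 of 66 at d12 (15.2%, 7.51 to 26.1). At d20 it was 32 of 36 (88.9%, 73.9 to 96.9). In colony cells it was 14 of 20 at d8c (70.0%, 45.7 to 88.1) and 25 of 47 at d12c (53.2%, 38.1 to 67.9). The intervals at d6, d8 and d12 lay wholly under those at d0 and d20. Without thinning, 100% of d0, 96.5% of d6, 89.6% of d12 and 97.4% of d20 cells had 8 members, so that single molecules of mitotic genes were present in most cells.

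The number of G2/M members per cell formed a low and a high cluster. Of the 647 cells, 261 had 0 to 7 members, 109 had 8 to 14, 53 had 15 to 19 and 224 had 20 to 30. The number of S members had no such gap, with 49 cells at 0 to 4, 203 at 5 to 9, 189 at 10 to 14 and 206 at 15 to 20. A stricter rule, added after the data were seen, therefore asked for at least 15 of 30 G2/M members or 10 of 20 S members. Near the G2/M limit, at 13 to 16 members, lay 7 of the 71 d0 cells, 11 of the 82 d2 cells and 3 of the 73 d4 cells. At d6 they were 6 of 81 cells and at d12 2 of 66. More cells lay within the same span of the S limit, with 14 of 71 at d0, 25 of 73 at d4 and 27 of 81 at d6. At d8 they were 22 of 59 and at d12 8 of 66, so the S shares depend more on the limit.

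**Figure D1:**
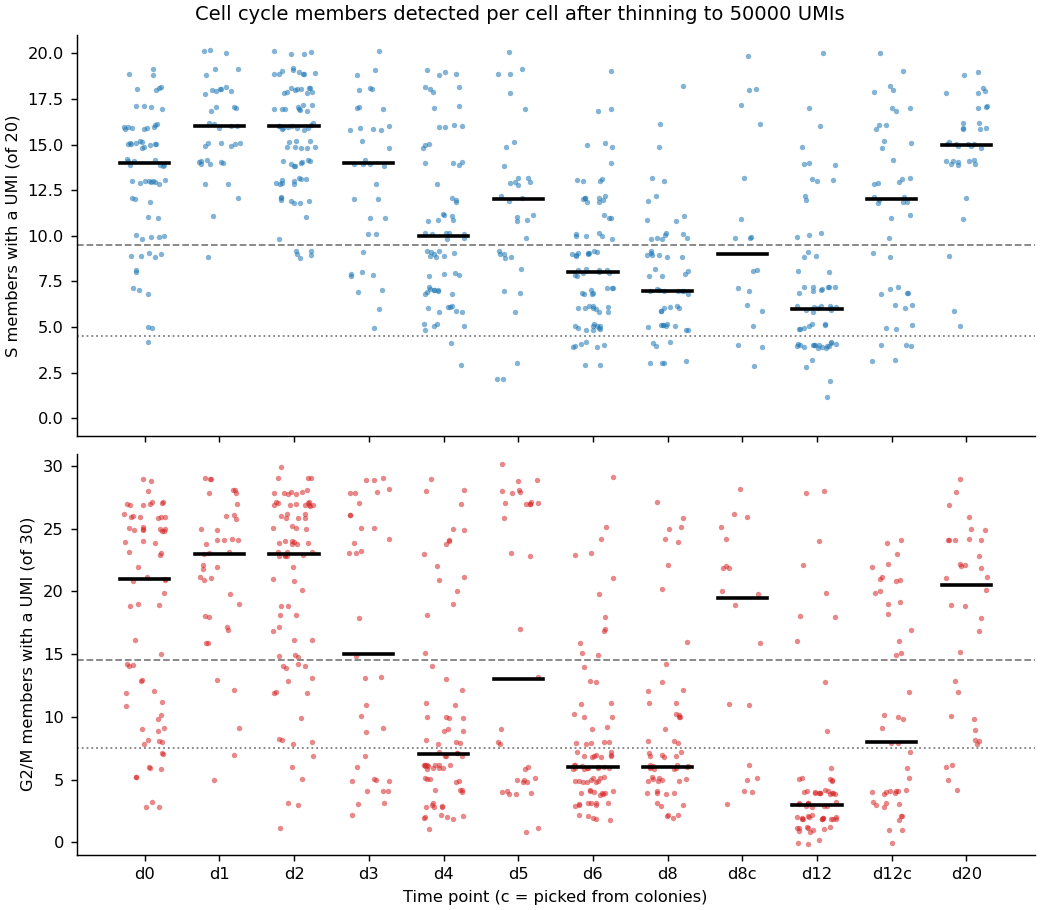
Number of S members (top, of 20) and G2/M members (bottom, of 30) with a UMI in each cell, by time point, after thinning to 50000 UMIs. Points are cells with small random offsets, black bars are medians, the dotted line is the limit of 5 or 8 members and the dashed line the stricter one. The G2/M median is 21 at d0, 3 at d12 and 20.5 at d20.

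By the stricter rule the share was highest at d1, low from d6 to d12, and high again at d20. The G2/M share was 60.6% at d0 (43 of 71, 48.3 to 72.0) and 87.5% at d1 (35 of 40, 73.2 to 95.8), with intervals that did not overlap. All d1 cells were numbered 1 to 48, and in d0 cells of that range the share was 64.3% (48.03 to 78.4), whose interval does overlap. It was 75.6% at d2, 51.4% at d3 and 23.3% at d4 (17 of 73, 14.2 to 34.7). At d5 it was 48.6% (17 of 35, 31.4 to 66.0), which overlapped the d4 interval. Days 6, 8 and 12 were alike in their intervals, at 16.0% (8.83 to 25.9), 15.3% (7.22 to 27.0) and 12.1% (5.38 to 22.5). At d20 the share was 66.7% (24 of 36, 49.03 to 81.4).

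The S share put the groups in the same order, apart from d8c, and was higher in every group but d8c. It was 81.7% at d0 (58 of 71), 97.5% at d1 (39 of 40), 93.9% at d2, 75.7% at d3 and 52.1% at d4. It was then 65.7% at d5, 34.6% at d6, 28.8% at d8 and 22.7% at d12 (15 of 66, 13.3 to 34.7). At d20, 33 of 36 cells passed (91.7%, 77.5 to 98.3). At the limit of 5 S members, the share ran from 69.7% at d12 (46 of 66) to 100% at d1, d2, d3 and d20.

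**Figure D2:**
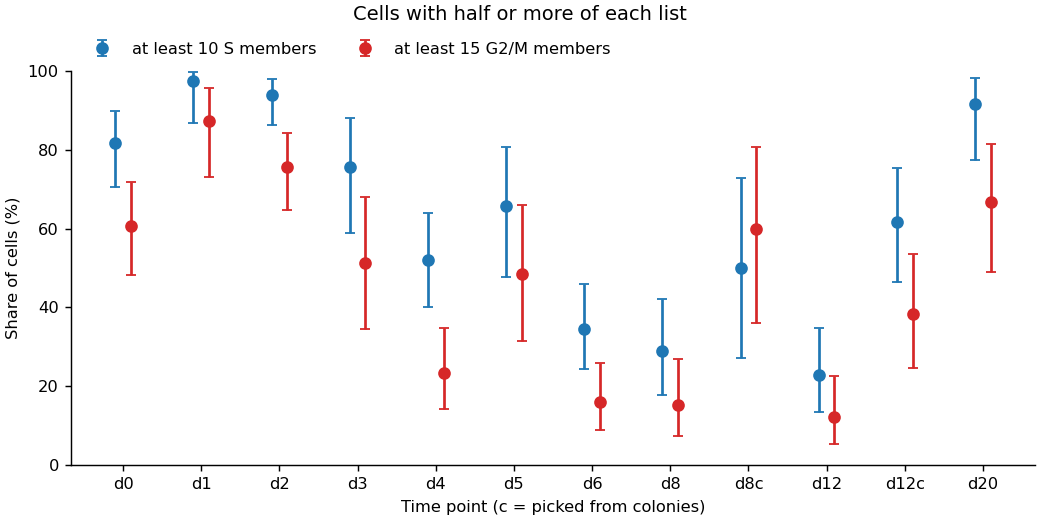
Share of cells (%) with at least 10 of 20 S members (blue) and at least 15 of 30 G2/M members (red) at each time point, with exact 95% intervals for counting error. Both shares are lowest at d12, at 22.7% and 12.1%, and the colony-picked cells d8c and d12c lie above the d8 and d12 cells of the same day.

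Most cells were positive for both lists or neither. At d0, 41 cells passed both rules, 17 only the S rule, 2 only the G2/M rule and 11 neither. At d1, 0 of 40 cells passed neither rule, which allows a share of up to 8.81%. At d12, 51 of 66 cells passed neither (77.3%, 65.3 to 86.7), and 0 passed only the G2/M rule. At d20, 24 cells passed both, 9 only S and 3 neither.

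The mitotic cyclins and their kinase showed this pattern gene by gene. Cdk1 had a lowest, median and highest level of 9.12, 324.2 and 1902 CPM over d0 cells, 0, 5.38 and 781.6 CPM over d12 cells, and 0, 247.4 and 766.4 CPM over d20 cells. The medians at d0 and d20 were close, the d12 median was near 0, and the ranges overlapped because a few d12 cells were high. Its mean was 422.6 ± 409.2 CPM at d0 (SD over 72 cells), 65.3 ± 166.3 at d12 (67 cells) and 291.0 ± 234.0 at d20 (38 cells). Ccnb1, the main mitotic cyclin, had medians of 132.6, 2.13 and 205.4 CPM on the same days. Ccna2, the S and G2 cyclin, went from a mean of 98.6 CPM at d0 to 17.7 at d12 and 71.4 at d20. Ccnb2 had means of 150.7, 32.2 and 220.3 CPM.

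At d12, 28 of 30 G2/M members and 17 of 20 S members were at least 2-fold lower than at d0, beside 17.9% of all 9600 genes tested, and 0 members were 2-fold higher, beside 17.0%. The median log2 difference was -2.62 for the G2/M list and -1.33 for the S list, beside -0.15 for all genes. A log2 difference here is that of group mean CPM with 1 CPM added. All 50 members passed the filter of a mean of 5 CPM over groups. The exceptions were Cenpf (-0.38) and Kif20a (-0.44) among G2/M members and Pcna (-0.40), Slbp (-0.59) and E2f1 (0.30) among S members.

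Plk1, the kinase that drives mitotic entry and spindle formation, had the largest difference of the list at d12, -4.04. It had a lowest, median and highest level of 0, 49.1 and 958.0 CPM at d0, 0, 0 and 106.3 CPM at d12, and 0, 103.9 and 435.2 CPM at d20. Its 335 UMIs at d12 (interval 300.1 to 372.9) came from 27 of 67 cells, and most d12 cells had none. The other mitotic kinases followed. Aurka and Aurkb, the Aurora kinases, had d12 differences of -2.59 and -1.95, and Birc5, the survivin subunit of the chromosomal passenger complex, -2.80.

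Proliferation markers were also lowest at d12 among d0, d1, d12 and d20. Mki67, which coats mitotic chromosomes and is the standard proliferation marker, had means of 58.9 CPM at d0, 85.3 at d1, 4.64 at d12 and 54.1 at d20. Its d12 difference was -3.41. Top2a, the topoisomerase that untangles sister chromatids, had means of 177.7, 200.8, 27.3 and 204.7 CPM. Foxm1, a transcription factor of G2/M genes, had few molecules at any time, with a mean of 8.1 CPM at d0, 13.7 at d1, 0.38 at d12 and 3.2 at d20. It had the largest ratio of highest to lowest group mean among all members, 35.9, over a d12 mean near 0. Its mean over groups, 5.04 CPM, was just above the filter of 5 CPM.

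Spindle checkpoint and ubiquitin-ligase members were lower at d12 as a group. Bub1, Bub1b and Ttk, kinases of the spindle checkpoint, had d12 differences of -2.13, -2.27 and -2.38. Cdc20, the activator of the anaphase-promoting complex, had -3.17, and Ube2c, its ubiquitin-conjugating enzyme, -2.14. Summed over the 5 genes, the mean was 565 CPM at d0, 112 at d12 and 528 at d20.

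Kinetochore and spindle members were less uniform. Ndc80 and Nuf2, partners in the complex that grips microtubules, had d12 differences of -3.09 and -2.64, and Cenpa, the centromeric histone, -2.14. Cenpe, a kinetochore motor, had -2.94. The spindle genes Nusap1 (-3.43), Hmmr (-3.15), Kif11 (-2.65), Tpx2 (-2.58) and Ckap2l (-2.08) were all past 2-fold. In cytokinesis, Anln (-3.26), Ect2 (-2.56) and Kif23 (-1.88), which build and position the cleavage furrow, were past it too.

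**Figure D3:**
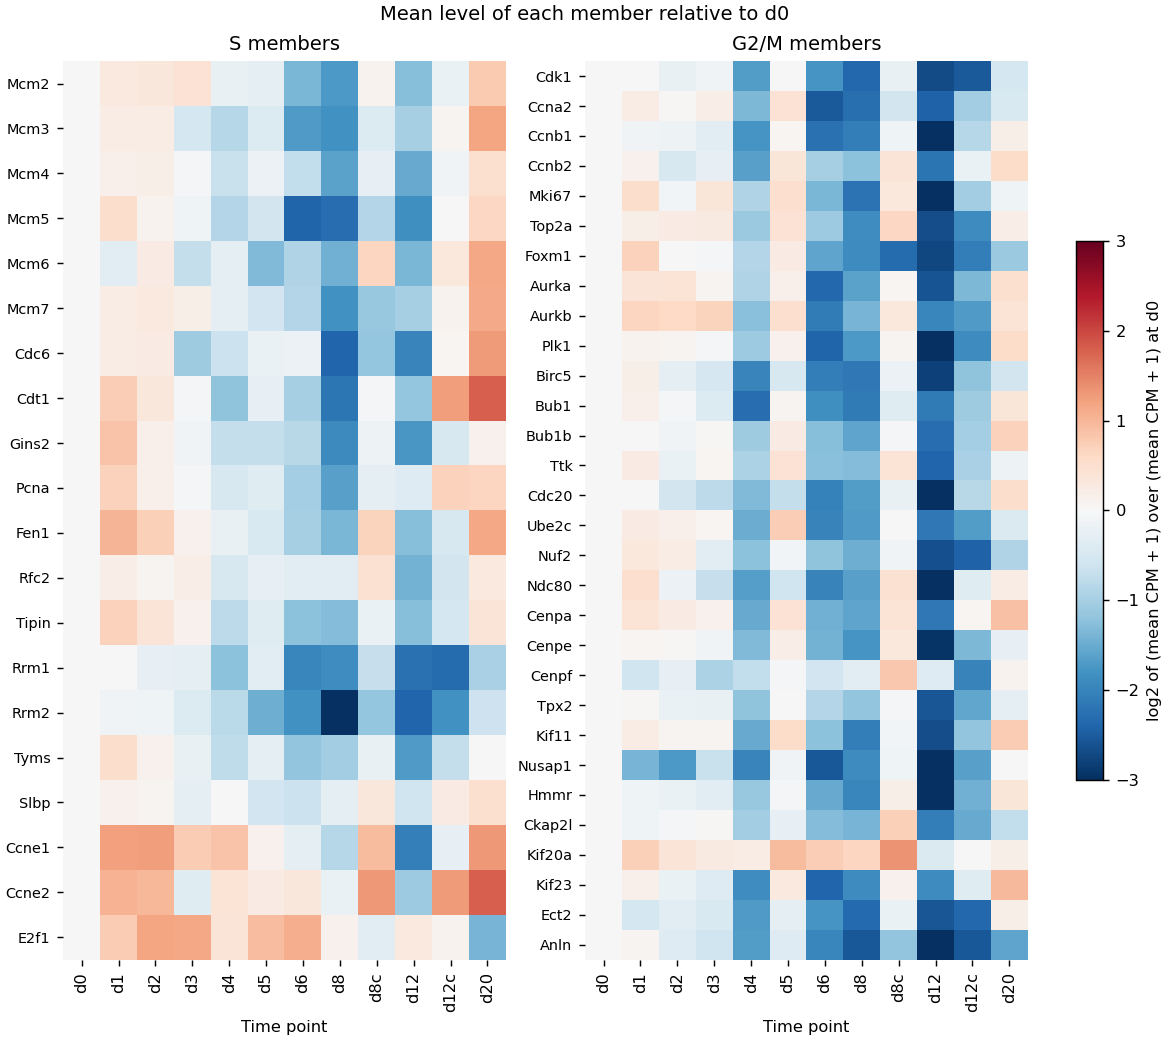
Mean level of each member at each time point relative to d0, as log2 of mean CPM plus 1, for S members (left) and G2/M members (right), blue lower and red higher, with colours cut at 3 in either direction. The G2/M columns are blue at d4, d6, d8, d12 and d12c and pale at d5, d8c and d20, and Kif20a, Cenpf and E2f1 depart from their lists.

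Among S members, the helicase genes were low at d6 to d12 and highest at d20. Mcm5 had a lowest, median and highest level of 0, 39.4 and 205.5 CPM at d0, 0, 0 and 228.7 CPM at d6, 0, 1.21 and 206.5 CPM at d12, and 0, 54.4 and 483.3 CPM at d20. Its median was thus at or near 0 at d6 and d12 and highest at d20, with overlapping ranges. Its d12 difference was -1.83, and 0.80 without the filter on cells. Summed over Mcm2, Mcm3, Mcm4, Mcm5, Mcm6 and Mcm7, the mean was 321 CPM at d0, 90.9 at d8, 124 at d12 and 608 at d20.

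Nucleotide supply had a different balance. Rrm2, the regulated subunit of ribonucleotide reductase, had medians of 346.0 CPM at d0, 6.20 at d12 and 165.7 at d20. Rrm1, its partner, had means of 139.0 CPM at d0, 28.6 at d12 and 69.8 at d20. Neither was higher at d20 than at d0, unlike the MCM genes. Tyms, which makes thymidylate, had means of 174.4, 53.4 and 175.7 CPM. Slbp, the histone mRNA binding protein, varied least of all members, with a ratio of 2.17 between its highest and lowest group means.

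Licensing genes had the widest range of the S list. Cdt1 and Cdc6, which load the helicase, had ratios of 20.5 and 17.7 between d20 and d8, their highest and lowest groups. Gins2, a helicase cofactor, had its highest mean at d1, 50.7 CPM, and its lowest at d8, 6.61 CPM. Pcna, the sliding clamp, had medians of 204.4 CPM at d0, 68.8 at d6, 76.3 at d12 and 272.9 at d20, and a UMI in 81.8% of thinned d12 cells. Fen1 and Tipin, a flap nuclease and a fork protection factor, had d12 differences of -1.27 and -1.28, and Rfc2, a clamp loader subunit, -1.42.

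Across the 12 groups, the G2/M list was lowest at d12 for 25 of 30 members and highest at d20 for 12, at d1 for 7 and at d8c for 5. The S list was lowest at d8 for 12 of 20 members and at d12 for 4, and highest at d20 for 12 and at d1 for 5. The ratio of highest to lowest group mean had a median of 8.89 for G2/M members (4.30 to 35.9) and 6.97 for S members (2.17 to 20.5).

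Few members differed on the first day. At d1, 3 of 20 S members were at least 2-fold higher than at d0, beside 8.96% of all genes, and 0 were lower, beside 9.84%. They were Ccne1, Ccne2 and Fen1. Ccne1, the cyclin of S-phase entry, had a mean of 51.3 CPM at d0 and 122.0 at d1 (log2 1.24). No G2/M member was 2-fold higher and Nusap1 was lower (-1.39), with medians of 5.79 CPM at d0 and 2.81 at d1.

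The change after d3 came in steps. From d3 to d4, 20 of 30 G2/M members were at least 2-fold lower, beside 5.35% of all genes, and 1 of 20 S members, Cdt1, was (-1.14). No member was higher, beside 6.38%. From d4 to d5, 26 of 30 G2/M members were at least 2-fold higher, beside 7.51%, with Bub1 at 2.35, and 0 S members were. Mcm6 was lower (-1.06), beside 4.84%. From d5 to d6, 27 of 30 G2/M and 4 of 20 S members were lower, beside 11.4%, with Ccna2 at -2.94, and 0 were higher, beside 7.70%. From d8 to d12, 12 G2/M and 2 S members were lower, beside 15.8%, and 2 S members were higher, beside 12.4%. Steps that follow each other share a group of cells.

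The return at d5 rested on a minority of cells with high levels. The summed G2/M level had a median of 728.4 CPM and a mean of 4022 CPM over 36 d5 cells. The 17 cells that passed the stricter rule had a median of 8883 CPM, against 4325 CPM in the 43 such cells at d0. All d5 cells were numbered 1 to 48, and whether they came from a single library was not tested.

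At d6, 26 of 30 G2/M and 10 of 20 S members were at least 2-fold lower than at d0, beside 13.8% of all genes. E2f1 was the only member 2-fold higher (1.10), beside 18.3%. At d8, 28 G2/M and 15 S members were lower, beside 13.4%, and 0 were higher, beside 16.7%. The d6, d8, d12 and d20 comparisons with d0 share the d0 cells.

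Cells picked from colonies had a higher G2/M share than the other cells of the same day. At day 12 this differed by number range under the stricter rule. The share in d12c cells numbered 1 to 24 was 19.05% (5.45 to 41.9), which overlapped d12 (12.1%, 5.38 to 22.5). In those numbered 49 to 96 it was 53.8% (33.4 to 73.4), which did not. At d8, 12 of 20 colony cells passed the stricter G2/M rule (60.0%, 36.1 to 80.9) against 9 of 59 other cells (15.3%, 7.22 to 27.0). The intervals did not overlap, nor with d8 cells numbered 1 to 48, the range of all d8c cells (17.5%, 7.34 to 32.8). By the stricter S rule, 10 of 20 d8c cells (27.2 to 72.8%) and 17 of 59 d8 cells (28.8%, 17.8 to 42.1) passed, with overlapping intervals, and at the limit of 5 S members 85.0% and 88.1% did. In d8c against d8, 28 of 30 G2/M and 15 of 20 S members were at least 2-fold higher, beside 11.3% of all genes, and 0 were lower, beside 15.3%. Mki67 had the largest G2/M difference (2.52) and Cdt1 the largest S difference (2.14). All 20 thinned d8c cells had more fibroblast than XEN markers.

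At day 12 the G2/M list was lower relative to d0 than the S list, in d12c and d12 cells alike. In d12c against d12, 12 S and 19 G2/M members were at least 2-fold higher, beside 14.7% of all genes, and Cenpf was lower (-1.62), beside 14.2%. Against d0, however, d12c cells had 22 of 30 G2/M members at least 2-fold lower and 0 higher, and 2 of 20 S members lower and 2 higher, beside 14.2% lower and 15.7% higher of all genes. The median difference of d12c from d0 was -1.35 for the G2/M list and -0.04 for the S list. For d12 cells these medians were -2.62 and -1.33. Between d12c and d12 the lists differed alike, with medians of 1.32 for G2/M and 1.09 for S. Cdk1 had a mean of 72.3 CPM at d12c and 65.3 at d12, while Ccnb1 had 135.0 and 26.2 and Pcna 369.1 and 173.2.

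The d12c cells fell into XEN-like and fibroblast-like cells, defined by which marker list had more members with a UMI. Of 25 XEN-like cells, 14 passed the stricter G2/M rule (56.0%, 34.9 to 75.6) and 22 the S rule (88.0%, 68.8 to 97.5). Of 22 other cells, 4 passed the G2/M rule (18.2%, 5.19 to 40.3) and 7 the S rule (31.8%, 13.9 to 54.9). The intervals overlapped for G2/M and did not for S. All 66 d12 cells were fibroblast-like, with 8 positive. The 25 XEN-like d12c cells were all numbered 49 to 96 and 21 of the 22 others 1 to 24, so cell class and number range cannot be told apart. At d20, 22 of 34 XEN-like cells passed the G2/M rule (64.7%, 46.5 to 80.3).

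**Figure D4:**
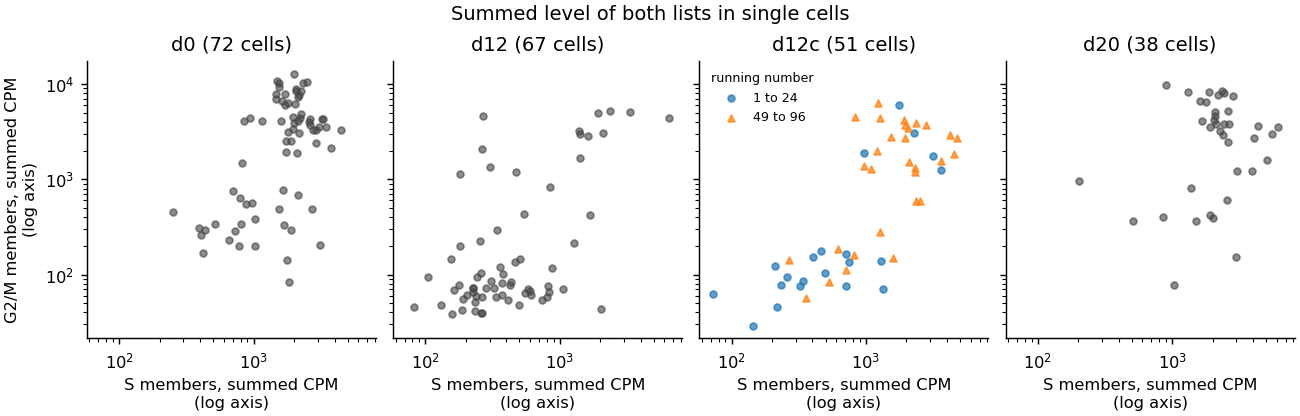
Summed CPM of the 20 S members (horizontal, log axis) against the 30 G2/M members (vertical, log axis) in each kept cell at d0, d12, d12c and d20, with the d12c cells split by running number. Most d12 cells sit near the G2/M median of 78.2 CPM, and the d12c cells numbered 49 to 96 lie mostly above those numbered 1 to 24.

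At d20 the S list stood above its d0 level and the G2/M list did not. Against d0, 8 of 20 S members were at least 2-fold higher, beside 18.3% of all genes, and E2f1 was lower (-1.40), beside 19.2%. Of 30 G2/M members 0 were higher and Anln (-1.57) and Foxm1 (-1.12) were lower. The medians were 0.63 for S members, 0.17 for G2/M members and 0.10 for all genes. The S members past 2-fold were Cdt1 (1.80), Ccne2 (1.80), Ccne1 (1.31), Cdc6 (1.27), Mcm3 (1.18), Mcm6 (1.16), Fen1 (1.16) and Mcm7 (1.13), mostly helicase and licensing genes. With edgeR TMM factors the number of all 50 members that were higher was 4 in place of 8, and in cells numbered above 48, of which d20 had few, it was 13.

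Against d12, d20 cells had 19 S and 28 G2/M members at least 2-fold higher, beside 26.8% of all genes, with Plk1 at 4.60. E2f1 was again the only member lower (-1.70), beside 22.4%. Against d12c, they had 8 S and 19 G2/M members higher, beside 12.4%, with Ect2 at 2.52, and E2f1 lower (-1.50), beside 16.8%.

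E2f1, a transcription factor of the S genes, ran against its list. Its mean was 8.23 CPM at d0, 19.8 at d2, 18.8 at d6, 10.4 at d12 and 2.50 at d20, its lowest group. At d20, 4 of 38 cells held its 19 UMIs (11.4 to 29.7), and without the highest cell the mean was 0.70 CPM. Its correlation with the mean of the other S members was 0.18, the lowest of the 20. E2f3, a related activator that is no member, had means of 14.99 CPM at d0 and 93.0 at d20.

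Kif20a and Cenpf stood apart in the G2/M list. Kif20a, a motor of cytokinesis, had group means between 2.93 CPM at d12 and 12.6 at d8c, and its correlation with the mean of the other G2/M members was 0.11, against 0.48 to 0.85 for the rest. Cenpf, a kinetochore and nuclear matrix protein, had a UMI in 158 of the 261 cells with fewer than 8 G2/M members (60.5%). Its d12 mean of 216.3 CPM was set by few cells, as the median was 21.0 and the highest cell 4606 CPM. Without that cell the mean was 149.7 CPM. Reads of overlapping or near-identical genes could add to either count, which was not tested.

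Cells with and without the G2/M program differed in level as sharply as in number, which follows in part from the rule. A separate measure was the sum of 30 further G2/M genes that did not define the classes, among them Cdca8, Prc1, Kif2c and Smc4. Their summed level had a median of 5182 CPM in the 277 cells that passed the stricter rule and 855.8 CPM in the 370 that did not. Within positive cells the group medians ran from 4443 CPM at d12 to 7345 CPM at d5, and within negative cells from 497.7 at d12 to 2123 at d20. The 8 positive d12 cells, at 4443 CPM, were close to the 35 positive d1 cells, at 4572 CPM. The share of positive cells ranged from 12.1% to 87.5%. This range cannot be set against that of the level within positive cells. The rule keeps cells with few members out, and the further genes move with the members.

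Within groups, single-cell levels of the G2/M members moved together more than those of the S members. The median correlation over pairs, on log2 CPM plus 1 centred within group in 670 cells, was 0.58 for G2/M (435 pairs) and 0.33 for S (190 pairs). Ube2c (0.85), Ccnb1 (0.84) and Birc5 (0.84) were nearest to the G2/M mean and Mcm5 (0.69) and Mcm3 (0.68) to the S mean. The cells share libraries and depth, and log2 UMIs had correlations of 0.12 with the G2/M mean and 0.19 with the S mean. Rrm2, Rrm1 and Tyms had correlations of 0.60, 0.54 and 0.51 with the G2/M mean. These were close to their 0.63, 0.53 and 0.48 with the other S members.

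The 2 lists were tied to each other to a varying degree. The correlation of their means was 0.46 over all cells, 0.85 at d12 and 0.58 at d0. At d1, where 34 of 40 cells passed both rules, it was -0.49, and at d20 it was 0.18. At d1, cells higher in one list tended to be lower in the other, and at d12 cells were mostly low or high in both.

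Other genes with a like pattern across cells, among 12052 genes with a UMI in at least 10% of kept cells, were for the G2/M mean Cdca8 (0.81), Prc1 (0.80), Kif22 (0.79), Kif2c, Knl1, Kif20b, Tacc3, Shcbp1 and Racgap1. For the S mean they were Lig1 (0.69), Hells (0.66), Gmnn (0.65), Prim1, Pclaf, Rpa1, Uhrf1, Hmgb2, Hat1 and Rfc5. The lowest correlations were with Tmem59, Ccnd2 and Ctsb (each -0.29) for G2/M and with Malat1 (-0.44) for S.

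Further S and G2/M genes were counted in the same way. At d12 against d0, 20 of 22 other S genes and 28 of 29 tested other G2/M genes were at least 2-fold lower, beside 17.9% of all genes. At d20 against d0, 11 of 22 other S genes were at least 2-fold higher, with a median of 1.03, and 2 of 29 other G2/M genes, with a median of 0.16, beside 18.3% of all genes. In d12c against d0 the medians were 0.23 for other S and -1.08 for other G2/M genes.

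Few genes that act before S phase were past 2-fold, in counts too small to set apart from the share of all genes. The list holds genes that promote S entry and genes of the retinoblastoma family, which hold it back. Rbl1, of that family, had the lowest difference of the list at d12 against d0 (-1.58). Of 10 tested G1 genes, 3 were at least 2-fold lower and 0 higher at d6 against d0 (median -0.60), beside 13.8% and 18.3% of all genes. At d8 they were 4 and 0 (median -0.66), beside 13.4% and 16.7%, and at d12 3 and 1 (median -0.49), beside 17.9% and 17.0%. Ccnd1, the growth-factor-responsive cyclin D, had means of 242.8 CPM at d0, 631.5 at d1, 687.1 at d2 and 151.5 at d6. Ccnd2 had 1010 CPM at d0, 1451 at d6 and 295.1 at d20. Myc, a growth regulator, had 74.2 CPM at d0, 9.0 at d6 and 188.7 at d12, its highest group. Most G2/M members were lowest at d12, whereas most S members were lowest at d8.

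The cell cycle inhibitors differed among themselves. Cdkn2a, which encodes the p16 inhibitor and ARF, had the largest difference, with means of 0.47 CPM at d0, 11.4 at d6, 24.1 at d8, 27.4 at d12, 35.4 at d8c and 6.52 at d20. Its log2 difference from d0 was 4.27 at d12, and at d20 against d12 it was -1.92. At d20 against d12, 4 of 5 tested inhibitors were at least 2-fold lower, beside 22.4% of all genes, and Cdkn1b was higher (3.73), beside 26.8%. Cdkn1a, the p21 inhibitor, had means between 911.4 CPM at d1 and 3035 at d4, with 2115 at d0, 2612 at d12 and 1093 at d20. Cdkn2b, the p15 inhibitor of cyclin D kinases, had 45.0 CPM at d0, 208.1 at d3, 131.0 at d12 and 6.2 at d20. Cdkn1b, the p27 inhibitor, was highest at d20, with 5.4 CPM at d0, 6.06 at d1, 2.1 at d12 and 40.3 at d20. It was also higher at d12c than at d12 (2.89). The G2/M share by the stricter rule was higher at d12c too, at 38.3% against 12.1% at d12. At d1, where that share was highest (87.5%), the Cdkn1b mean was 6.06 CPM. Cdkn1c, the p57 inhibitor, had 319.4 CPM at d0, 156.4 at d12 and 15.1 at d20.

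RNA content gave no uniform difference between the classes. Endogenous UMIs per spike-in UMI had a higher median in cells passing the stricter G2/M rule in 7 of 12 groups, with a median ratio of 1.06. With the limit of 8 members this was so in 4 of 10 groups, with a median ratio of 0.79.

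Cell names carry a running number, and ranges of that number may be separate libraries, which the labels do not state. The G2/M share by the stricter rule was 7.5% in d6 cells numbered 1 to 48 (3 of 40, 1.57 to 20.4) and 24.4% in those above 48 (10 of 41, 12.4 to 40.3). By the limit of 8 members these were 17.5% and 51.2%, with intervals of 7.34 to 32.8 and 35.1 to 67.1 that did not overlap. At d12c the shares by the stricter rule were 19.05% for numbers 1 to 24 and 53.8% for 49 to 96. At d0 they were 64.3% and 55.2%, at d2 75.6% and 75.7%, and at d12 13.6% and 9.09%. At d20 they were 60.7% and 87.5%, the latter from 8 cells. In both ranges the share was lower at d12 than at d0 and d20.

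**Figure D5:**
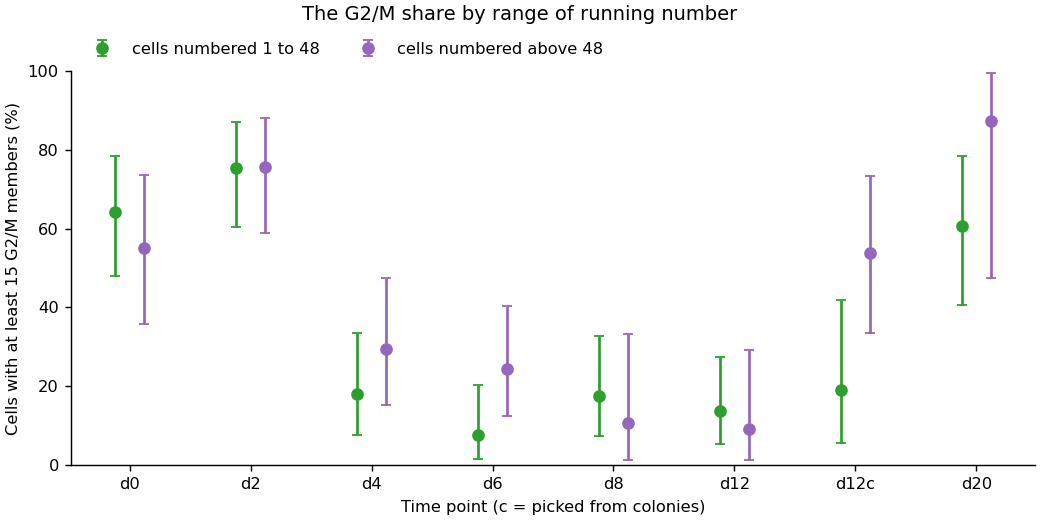
Share of cells (%) with at least 15 of 30 G2/M members, by time point, for cells numbered 1 to 48 (green) and above 48 (purple), with exact 95% intervals for counting error. Groups with 1 range are left out, and the range above 48 at d20 holds 8 cells. The ranges lie close at d2 (75.6% and 75.7%) and furthest apart at d12c (19.05% and 53.8%).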

How the data were processed

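Single cells were lysed after picking, their cDNA was amplified, and libraries were sequenced as paired-end reads. The deposited matrix holds UMI counts, in which a molecule read several times is counted once. The authors made it from reads mapped to mouse transcripts (mm9). The aligner and counter are not given in the sources used here. Counts of 100000 or more, 5 in all, were rounded in the file. Duplicated gene-name entries (4) were left out, and 92 spike-in rows (5.43% of UMIs) were excluded from CPM. All cell columns were mapped to a time point by name, and doublets were not called because cells were picked singly.

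From these counts, CPM, shares of cells and 2-fold differences of mean CPM (1 CPM added, genes with a mean of at least 5 CPM over groups) were computed with Python 3.11.15, pandas 2.3.3 and scipy 1.17.1. Pooled counts were rescaled with edgeR 4.0.16 (TMM) and DESeq2 1.42.0 (size factors) in R 4.3.3 as alternatives. Precision is limited by 17633 to 6004860 UMIs per kept cell. The floor for a count of 0 is 3 counts. Members and lists were chosen with earlier results of these data known. All members are described by role, with the largest differences per comparison and the 10 other genes most like each list, of which 1 is not reported here. The fold calculation was tested on simulated data.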

Additional observations from a re-analysis of the deposited data

How the results depend on the processing

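Of 88 shares recomputed, 47 moved by less than their interval, and of 88 counts of members, 69 stayed within 1.5 times. Shares with 25% of each list at d0, d6, d12 and d20 depended on depth and on the limit. With at least 6000 genes per cell, S at d0 and G2/M at d20 were 100%. Thinned to 20000 UMIs, S shares at d0, d6 and d12 were 90.3%, 67.4% and 41.8%, and G2/M shares at d0, d6 and d20 were 68.1%, 20.9% and 71.1%. Thinned to 100000 UMIs, S was 100%, 100% and 92.4%, and G2/M at d0 and d6 was 95.2% and 68.1%. Without thinning, S was 100% at d0, d6 and d12, and G2/M at d0, d6, d12 and d20 was 100%, 96.5%, 89.6% and 97.4%. With 15% of the list, S at d0, d6 and d12 was 100%, 100% and 97.0%, and G2/M at d0, d6 and d20 was 95.8%, 72.8% and 97.2%. With 40% of the list they were 91.5%, 56.8% and 30.3%, and 70.4%, 19.8% and 72.2%. With 50% of the list, added after the data were seen, they were 81.7%, 34.6% and 22.7%, and 60.6%, 16.0% and 66.7%. A lower limit or a greater depth raises these shares by construction. In cells numbered 1 to 48, G2/M at d6 was 17.5%. Above 48 it was 51.2%, and S at d0 was 100%.

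Small counts moved. Members higher at d6 against d0 were 2 in cells numbered 1 to 48 and 0 above 48, with DESeq2 size factors, with mean log2 values, with pooled UMIs and with a pseudocount of 10 CPM. In cells numbered 1 to 48, 1 member was higher at d12 against d0. At d20 against d0 the number higher was 4 with edgeR TMM factors and with pooled UMIs, and 13 with mean log2 values and above 48. The number lower was 5 with TMM factors, size factors, above 48 and without the highest cell of each group, 6 with mean log2 values and 1 with a pseudocount of 10 CPM. At d20 against d12 the number lower was 2 above 48 and 0 with that pseudocount. Without a filter on cells, Mcm5 at d12 against d0 turned to 0.80. TMM factors moved the median log2 difference of all genes at d20 against d12 from 0.23 to -0.18, and at d20 against d0 from 0.10 to -0.14. Except where the construction shows it, the cause was not tested. No paired analysis was possible because the cells carry no replicate number and the course is 1 sample.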
